A study of Homo sapiens with 14 samples.

Results

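A group of 10 immediate-early genes was examined for SATB1, H3K27ac, CTCF and Matrin 3 peaks in Jurkat cells, a human leukaemic T cell line. They were the 5 AP-1 genes FOS, FOSB, JUN, JUNB and JUND, the 3 EGR genes EGR1, EGR2 and EGR3, and NR4A1 and DUSP2. They were chosen by name, 10 of 19974 protein-coding genes that RefSeq annotates on GRCh38.p14. Every peak within 50 kb of their annotated bodies was taken from the 14 deposited peak lists, which gave 657 peaks in all. A peak was called at a gene end if it came within 2 kb of either annotated end of the gene. On GRCh38, FOS lies at chr14:75278828-75282230 and JUN at chr1:58780791-58784047, and no other protein-coding gene lies within 50 kb of either. FOSB (chr19:45467996-45475179), JUNB (chr19:12791486-12793315) and JUND (chr19:18279694-18281622) share a chromosome but not a window. EGR1 lies at chr5:138465479-138469303, EGR2 at chr10:62811996-62819167 and EGR3 at chr8:22687659-22693480. NR4A1, the longest of the 10, lies at chr12:52022832-52059503 and DUSP2 at chr2:96143169-96145440. Around these 8 genes the windows hold 1 to 8 other protein-coding genes.

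The assay was CUT&Tag, in which an antibody brings a transposase to its target so that the DNA beside it is tagged and sequenced. H3K27ac, a histone mark of active promoters and enhancers, was profiled in 2 libraries of cells infected with a lentiviral shRNA against SATB1 (shSATB1) and in 2 libraries of cells with a control shRNA (shCtrl). CTCF, which binds insulators and loop anchors, was profiled in 3 shSATB1 and 3 shCtrl libraries. SATB1, an AT-binding chromatin organiser of the T lineage, was profiled in 2 shCtrl libraries, and Matrin 3, a nuclear matrix protein, in 2 Jurkat libraries whose labels name no shRNA. The labels name no separate infections or cultures, so the spread between libraries of a group may be technical. The lists hold no measure of how much SATB1 was left in shSATB1 cells, and SATB1 CUT&Tag of those cells was not analysed here.

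The FOS and JUN families form the dimers of AP-1, which bind the TRE and CRE elements of T cell activation genes. EGR proteins are zinc-finger factors, NR4A1 is an orphan nuclear receptor, and DUSP2 is a nuclear phosphatase that inactivates MAP kinases. Most of these genes can be transcribed within minutes of a stimulus such as T cell receptor signalling, through SRF, ternary complex factors and CREB already present in the cell. Nothing in the labels describes a stimulus.

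The sequences before the annotated starts are shown for 5 of these genes, 4 because they hold a motif match and FOS because its CTCF call differed between the groups. Each is 250 bases from RefSeq, build GRCh38.p14, given 5′ to 3′ on the strand of the gene. Capitals mark a match to TGACGTCA (the CRE), TGACATCA (the variant element of the JUN promoter) or the CArG box bound by SRF.
JUN, chr1:58784048-58784297, minus strand: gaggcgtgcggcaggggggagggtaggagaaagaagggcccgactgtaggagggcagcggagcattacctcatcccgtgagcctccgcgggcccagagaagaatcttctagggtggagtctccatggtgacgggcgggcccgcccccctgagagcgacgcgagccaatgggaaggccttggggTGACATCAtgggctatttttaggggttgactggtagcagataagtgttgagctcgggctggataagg
JUND, chr19:18281623-18281872, minus strand: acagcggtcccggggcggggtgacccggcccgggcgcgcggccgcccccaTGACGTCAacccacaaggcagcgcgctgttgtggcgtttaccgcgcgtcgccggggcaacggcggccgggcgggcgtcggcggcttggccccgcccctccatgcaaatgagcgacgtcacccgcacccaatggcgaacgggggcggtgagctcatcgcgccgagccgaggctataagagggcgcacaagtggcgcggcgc
EGR1, chr5:138465229-138465478, plus strand: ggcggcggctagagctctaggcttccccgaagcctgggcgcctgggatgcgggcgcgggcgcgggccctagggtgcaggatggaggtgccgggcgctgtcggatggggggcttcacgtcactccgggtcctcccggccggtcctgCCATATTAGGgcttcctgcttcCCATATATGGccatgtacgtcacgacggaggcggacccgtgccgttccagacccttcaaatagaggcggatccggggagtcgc
EGR2 from the third annotated start, chr10:62816367-62816616, minus strand: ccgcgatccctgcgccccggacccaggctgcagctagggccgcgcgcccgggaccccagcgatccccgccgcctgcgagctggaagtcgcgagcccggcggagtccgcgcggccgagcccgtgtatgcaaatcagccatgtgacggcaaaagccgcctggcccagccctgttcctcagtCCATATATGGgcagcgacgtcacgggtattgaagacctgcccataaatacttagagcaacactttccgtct
FOS, chr14:75278578-75278827, plus strand: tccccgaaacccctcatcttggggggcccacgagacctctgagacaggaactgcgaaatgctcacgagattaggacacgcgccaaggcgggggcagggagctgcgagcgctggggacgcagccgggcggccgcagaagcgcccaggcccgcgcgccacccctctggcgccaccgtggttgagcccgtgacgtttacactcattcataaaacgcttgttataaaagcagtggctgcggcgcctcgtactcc

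SATB1 peaks in both lists covered the JUN, JUND, EGR1 and EGR2 windows shown, and the DUSP2 window as well. The FOS window was covered by CTCF peaks of all 3 shCtrl libraries and by no peak of any other list. The JUN variant lay 67 to 60 bases before the start of JUN and the CRE 200 to 193 bases before that of JUND. EGR1 had CArG boxes 105 to 96 and 83 to 74 bases before its start, and EGR2 had 1 of them 71 to 62 bases before the third start. Over all 35116 windows of the table, on both strands, the CRE was present in 1.65%, the JUN variant in 2.37% and the CArG box in 1.16%. The TRE TGACTCA, present in 4.2% of all windows, and the EGR element GCGTGGGCG, present in 0.72%, matched none of the 12 windows of 9 of these genes. No window was given for EGR3.

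SATB1 was placed at the ends of several of these genes, at very different heights. Of the 10 genes 6 (JUN, JUND, EGR1, EGR2, NR4A1 and DUSP2) had a SATB1 peak at an end in both lists, against 24.5% of all protein-coding genes. The count was 4 when the peak maximum had to lie within 2 kb, without EGR2 and NR4A1, and 4 without the lowest 25% of each list, without EGR1 and NR4A1. The share of all genes was not computed for these settings, so the 24.5% does not apply to them. With FOSB and JUNB, each called in 1 list, 8 of the 10 had one in at least 1 list, against 29.1%. The 2 SATB1 lists shared 40.8% of their exact peak starts, whereas the other 90 pairs of lists shared at most 1.03%, so the SATB1 lists were counted as 1 sample and carry no SD.

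Heights are given as the percentile of the peak's maximum signal within its own list, with 100 for the highest peak. The signal is the authors' and is not scaled between libraries, so a percentile describes a list and does not measure a change between lists. JUN, the partner of FOS in AP-1, carried the highest SATB1 peak at a gene end among the 10, at the 98.4th and 98.9th percentile. JUND, a JUN protein made in resting cells, followed at 79.97 and 73.8. DUSP2 stood at 74.02 and 76.1, within the range of JUND, and EGR2 at 65.8 and 65.2. EGR1 was low at 25.4 and 12.6 and NR4A1 at 13.0 and 18.5, ranges that overlap. Ranking by total signal, which adds peak width, placed NR4A1 at 76.5, EGR1 at 55.2 and JUND at 51.3 on average, so the order below JUN depends on the measure of height.

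JUNB, an AP-1 subunit that can act against JUN, had a SATB1 peak of 735 bp over its start in the second list only, at the 73.8th percentile. FOSB had one at the 4.02nd percentile in the first list only. EGR3 was the only one of the 10 with no SATB1 region within 50 kb, where 9 of 10 had one in both lists and 57.3% of all genes did. FOS had no SATB1 peak at its ends in either list.

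**Figure D1:**
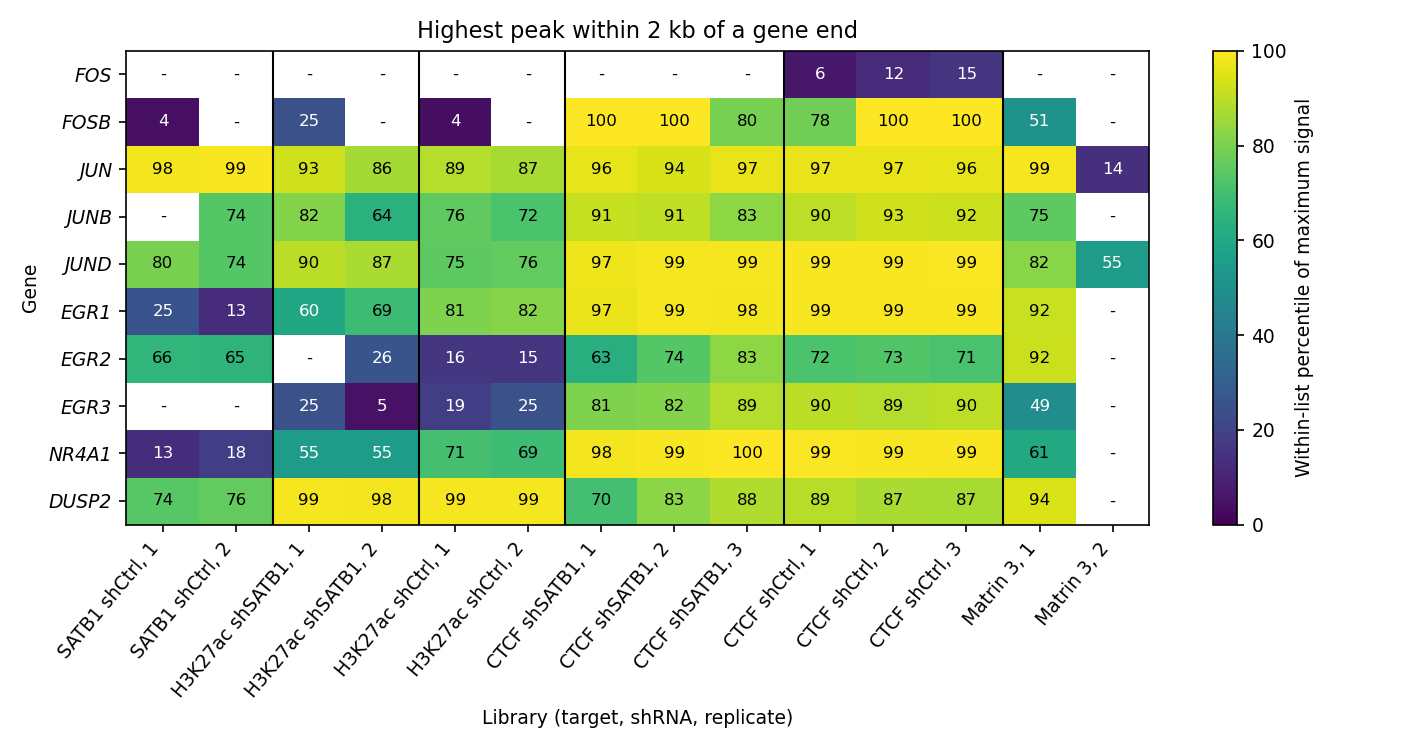
Rows are the 10 genes and columns the 14 libraries; each cell gives the within-list percentile of the maximum signal (0 to 100) of the highest peak within 2 kb of a gene end, and a dash marks no peak. JUN has peaks in all 14 lists, whereas FOS has one in each of the 3 shCtrl CTCF libraries only.

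FOS, the inducible partner of JUN, had SATB1 away from the gene instead. In both lists 5 SATB1 regions lay within 50 kb of it, a window that holds no other protein-coding gene. They were centred 48.2, 31.2, 29.0 and 19.4 kb upstream of the start and 16.1 kb downstream of it. The region 29.0 kb upstream (chr14:75249151-75250440, GRCh38) was at the 99.1st and 99.3rd percentile of the SATB1 lists, above the promoter peak of JUN in both. The one 31.2 kb upstream stood at 74.02 and 76.1, the one 48.2 kb upstream at 49.5 and 43.1, and the one 19.4 kb upstream at 38.4 and 37.2. The downstream one was near the bottom of both lists, at 4.02 and 1.42.

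The longer Matrin 3 list had a peak over each of these 5 SATB1 regions, at the 92.5th percentile 29.0 kb upstream and the 94.5th 19.4 kb upstream. CTCF was called over 4 of the 5 in all 6 libraries. Over the region 31.2 kb upstream it was called in no shSATB1 library and in 2 shCtrl libraries. H3K27ac was called in all 4 libraries over the 3 regions farthest upstream. Over the region 19.4 kb upstream it was called in both shSATB1 libraries and in 1 of the 2 shCtrl libraries, and over the downstream region in none.

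Elsewhere the flanking SATB1 regions were fewer. Near the 10 genes 20 regions were called in both lists, of which 6 lay at gene ends, and another 3 were called in 1 list. JUN had a second one 28.9 kb downstream of its start (chr1:58754248-58756136), at the 78.1st and 79.9th percentile. DUSP2 had a second one 19.0 kb upstream (chr2:96163453-96165371), split into 2 peaks at 78.1 and 18.8 in the first list and called as 1 peak at 71.2 in the second. FOSB had one 10.5 kb downstream of its start, at 65.8 and 61.7, which began 2.6 kb past its 3′ end and so fell just outside the distance used for gene ends. Another near FOSB lay 39.0 kb downstream of its start. JUND had flanking regions 23.5 and 41.6 kb upstream and JUNB 1 at 13.1 kb upstream. NR4A1 had 1 centred 50.8 kb upstream and another downstream, described below. EGR1 and EGR2 had none besides the one at the gene.

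Most of the 20 SATB1 regions were shared with the other targets. For H3K27ac and Matrin 3 the shares were near those of all SATB1 regions called in both lists. H3K27ac in both shSATB1 libraries overlapped 18 of them and H3K27ac in both shCtrl libraries 17, against 74.7% and 74.8% of all 13072 such SATB1 regions. CTCF in every shSATB1 library overlapped 16 and CTCF in every shCtrl library 18, against 39.2% and 65.6%. The longer Matrin 3 list overlapped 18, against 82.9%. The only region with none of these targets lay 74.01 kb past the start of NR4A1 and 36.0 kb past its 3′ end (chr12:52095470-52098213). It stood at the 68.9th and 71.2nd percentile of the SATB1 lists, and no H3K27ac, CTCF or longer-list Matrin 3 peak overlapped it.

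H3K27ac marked most of these genes whichever shRNA the cells carried. It was called at a gene end in both shSATB1 libraries for 7 of the 10 and in both shCtrl libraries for 8, against 36.9% and 38.8% of all genes. DUSP2 was the highest of the 10, at the 98.5th and 98.3rd percentile in shSATB1 and the 98.8th in both shCtrl libraries. A second H3K27ac peak 18.5 to 19.5 kb upstream of DUSP2, over its flanking SATB1 region, stood nearly as high, at 98.2 and 98.4 in shSATB1 and at 98.5 and 97.6 in shCtrl. JUN was at 92.7 and 86.4 in shSATB1 and at 88.9 and 86.7 in shCtrl. JUND was at 89.6 and 87.4 in shSATB1 and at 75.2 and 76.2 in shCtrl, and JUNB at 81.5 and 63.7 in shSATB1 and at 75.8 and 71.7 in shCtrl.

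EGR1 stood at the 59.5th and 68.7th percentile in shSATB1 and at 80.7 and 81.7 in shCtrl. NR4A1 stood at 55.1 and 54.8 in shSATB1 and at 70.6 and 68.8 in shCtrl. The EGR2 and EGR3 peaks were low, at most the 25.9th percentile at an end in any library. EGR2 was missing from the first shSATB1 library under the 2-kb limit, where its peak of 550 bp lay 2.6 kb inside the gene, just outside the limit, at the 49.8th percentile. FOSB had an H3K27ac peak in 1 library of each group, at 24.98 in shSATB1 and 3.78 in shCtrl. FOS had none at its ends in any of the 4 libraries.

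None of the 10 genes lacked H3K27ac at its ends in both shSATB1 libraries while having it in both shCtrl libraries, against 2.18% of the 7744 genes called in both. None had it in both shSATB1 libraries and in neither shCtrl library, against 0.884% of the 11318 genes called in neither. All 4 libraries had it at 7 of the 10 genes, against 35% of all genes.

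CTCF was at an end of 9 of the 10 genes, all but FOS, in every shSATB1 library, against 37.9% of all genes. In every shCtrl library it was at all 10, against 58%. NR4A1 stood at the 98.3rd, 99.0th and 99.6th percentile in shSATB1 and between 99.2 and 99.3 in shCtrl. EGR1 was at 97.1, 98.7 and 98.4 in shSATB1 and between 99.0 and 99.1 in shCtrl. JUND lay between 97.5 and 98.8 in shSATB1 and between 98.9 and 99.3 in shCtrl, and JUN between 93.8 and 96.7 in shSATB1 and between 96.2 and 96.7 in shCtrl. The highest CTCF peak near the 10 genes, at the 99.8th percentile or above in each of the 6 libraries, lay 10.6 kb downstream of the start of FOSB. Its edge came within 2 kb of the 3′ end of FOSB in 2 shSATB1 and 2 shCtrl libraries and stopped just short of that in the other two.

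The longer Matrin 3 list had a peak at an end of 9 of the 10 genes, all but FOS, against 49.3% of all genes. JUN was the highest there, at the 98.6th percentile, followed by DUSP2 at 94.4, EGR2 at 92.2 and EGR1 at 91.6. The shorter list, of 2105 peaks against 24566, had one at an end of JUN and JUND only, against 7.92% of all genes. It also had a peak over the EGR2 window shown above, before the third annotated start, which fell outside the 2-kb limit. SATB1, H3K27ac and CTCF of shCtrl cells and Matrin 3 of the longer list were all present at an end of 6 of the 10 genes, against 21.7%. They were the same 6 genes that had SATB1 at an end in both lists. Over all genes, 4329 of the 4900 with SATB1 at an end in both lists had all of these targets.

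The CTCF comparison between shSATB1 and shCtrl cells was made on the length of DNA covered by CTCF peaks within 50 kb of each gene. In bulk chromatin, fewer cells with a peak and a weaker peak per cell cannot be told apart. Every one of the 10 genes had less in each shSATB1 library than in any shCtrl library. The same was true of 93.9% of the 17141 genes with CTCF in shCtrl, so the direction is that of nearly all genes. The lists themselves differed. The shSATB1 lists held 14695, 17904 and 20284 peaks with lowest total signals of 6017 to 7332, and the shCtrl lists held 31270, 31141 and 32540 peaks with lowest total signals of 13359 to 14792. Total covered length in the lists differed by -65.4% and peak number by -44.3%. The part of these list differences in the values below was not tested beyond lists cut to the same number of peaks.

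EGR1 had 4.42, 6.97 and 8.07 kb in shSATB1 and 15.9, 17.4 and 20.5 kb in shCtrl, so the groups did not overlap. The mean was 6.49 ± 1.87 kb in shSATB1 and 18.0 ± 2.32 kb in shCtrl (SD, n = 3 each), a difference of -63.9%, the most negative of the 10. FOS had 6.02, 10.1 and 10.9 kb in shSATB1 and 18.7, 22.1 and 25.4 kb in shCtrl, a difference of -59.2%. JUN had 3.01, 6.05 and 5.06 kb in shSATB1 and 11.0, 9.99 and 14.2 kb in shCtrl, a difference of -59.8%. EGR3 averaged 7.32 ± 1.57 kb in shSATB1 and 18.6 ± 2.02 kb in shCtrl (SD, n = 3 each), a difference of -60.7%. These 4 lay near the median of all genes, -62.7%.

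JUNB and FOSB lay at the other end. JUNB averaged 34.8 ± 4.56 kb in shSATB1 and 55.3 ± 2.96 kb in shCtrl (SD, n = 3 each), a difference of -37.1%. FOSB averaged 27.8 ± 3.66 kb in shSATB1 and 44.6 ± 0.253 kb in shCtrl (SD, n = 3 each), a difference of -37.6%. NR4A1 averaged 25.9 ± 3.88 kb in shSATB1 and 49.4 ± 0.506 kb in shCtrl (SD, n = 3 each), a difference of -47.5%. JUND averaged 18.6 ± 4.66 kb in shSATB1 and 38.2 ± 2.11 kb in shCtrl (SD, n = 3 each), a difference of -51.2%. DUSP2 had 9.15, 14.7 and 13.7 kb in shSATB1 and 19.8, 26.0 and 35.9 kb in shCtrl, the widest spread of the 10, and a difference of -54.1%. EGR2, with the least CTCF cover of the 10, had 2.18, 2.02 and 2.49 kb in shSATB1 and 4.31, 3.22 and 4.54 kb in shCtrl, a difference of -44.6%. The 10 genes had a median of -52.7%, and the interquartile range of all genes was -76.2% to -51.6%. FOSB, JUNB, JUND, EGR2 and NR4A1 lay above that range.

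For each of the 10 genes the two-sided exact permutation test over libraries gave p = 0.1, the smallest that 3 against 3 allows, and 0.124 after Benjamini-Hochberg adjustment over all genes. No gene of the genome could pass 0.05 in this design. With every list cut to its 14695 highest peaks, 8 of the 10 still had less in each shSATB1 library, against 74.1% of genes; FOS (p = 0.2) and JUN (p = 0.3) overlapped (exact permutation test). The differences were smaller with these lists. JUN differed by -0.961 kb, against -7.00 kb with the whole lists, EGR1 by -4.97 against -11.5 kb and JUND by -8.03 against -19.5 kb. EGR2 differed by -0.775 against -1.79 kb, FOS by -6.05 against -13.1 kb, EGR3 by -5.92 against -11.3 kb and FOSB by -10.8 against -16.8 kb. DUSP2 (-10.1 against -14.8 kb), NR4A1 (-21.1 against -23.5 kb) and JUNB (-19.1 against -20.5 kb) differed less from their whole-list values.

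**Figure D2:**
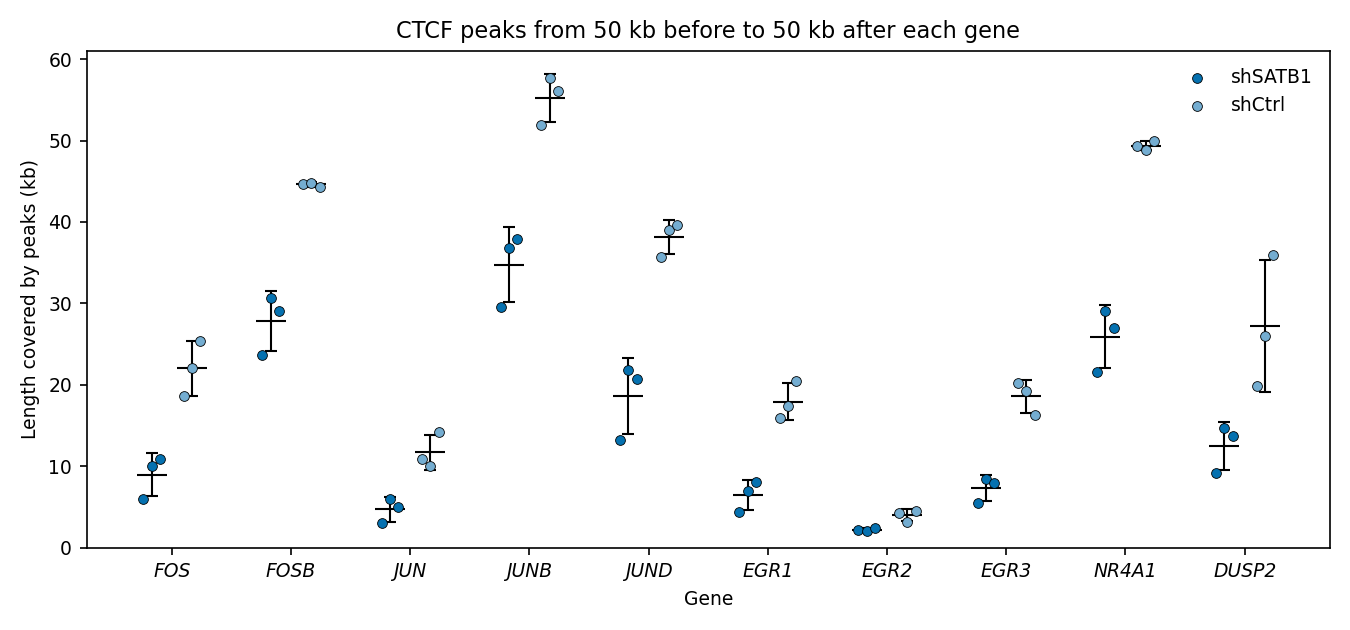
Kilobases covered by CTCF peaks from 50 kb before to 50 kb after each gene, with 1 point per library, shSATB1 on the left and shCtrl on the right of each pair, and bars for mean and SD (n = 3 each). The groups do not overlap for any of the 10 genes.

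Peak number and peak width were also read. The number of CTCF peaks was lower in each shSATB1 library than in any shCtrl library for 4 of the 10 genes (JUN, JUND, EGR1 and EGR3), against 50.4% of genes. JUNB had the opposite pattern, seen at 1.02% of genes, with 14, 14 and 12 peaks in shSATB1 and 10, 9 and 8 in shCtrl. Wide shCtrl peaks were called there as several narrower peaks in shSATB1. The peak of the second shCtrl library at chr19:12789221-12803068 held second shSATB1 library peaks at 12789739-12794888, 12795521-12797706 and 12801155-12802445. No CTCF region near JUNB was called in shSATB1 libraries alone. The CTCF peak over JUNB itself was 4427, 5150 and 5087 bp wide in shSATB1 and 8535, 13848 and 8927 bp wide in shCtrl. The window of JUNB holds 8 other protein-coding genes, the most of the 10, so peaks there may belong to neighbours. At NR4A1 the peak over the start was 4140, 7737 and 7572 bp wide in shSATB1 and 13040, 7655 and 12970 bp wide in shCtrl, so the widths overlapped. At EGR1 it was 2360, 2546 and 2819 bp wide in shSATB1 and 3536, 4728 and 8187 bp wide in shCtrl, with no overlap.

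Single CTCF regions were then followed between the groups. When peaks were merged across the 6 libraries, 71 CTCF regions lay within 50 kb of these genes, and 47 of them (66.2%) were called in all 6, against 35.7% of all 34146 regions. Another 7 (9.86%) were called in no shSATB1 and every shCtrl library, against 22.7%. None was called in every shSATB1 and no shCtrl library, against 0.00879%.

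The 7 regions absent from shSATB1 lay near 7 different genes. One covered the FOS promoter (chr14:75277618-75279718). The others lay 48.3 kb upstream of FOSB, 32.5 kb upstream of JUN, 10.0 kb downstream of the start of JUND, 27.8 kb downstream of that of EGR1, 20.2 kb from EGR3 and 67.2 kb downstream of the start of NR4A1. Both SATB1 lists overlapped 0 of the 7, against 16.5% of all 7747 regions of that kind, and 17 of the 47 present in all libraries, against 40.5% of all 12184. The 7 were low in shCtrl, with a mean percentile of 8.42 to 37.2 (median 19.0), against 44.5 to 99.9 (median 86.1) for the 47. With lists of equal length no region near the 10 genes had this pattern.

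At the FOS promoter no CTCF peak was called in the 3 shSATB1 libraries, and in shCtrl the peak was 1688, 1916 and 1593 bp wide, at the 6.26th, 12.3rd and 15.0th percentile. FOS was the only one of the 10 genes whose CTCF at an end was called in no shSATB1 and every shCtrl library, against 14.8% of the 11580 genes called in every shCtrl library. The reverse was seen for 0 of the 7364 genes called in no shCtrl library. Without the lowest 25% of each list, or with lists of equal length, FOS no longer had the peak in every shCtrl library.

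**Figure D3:**
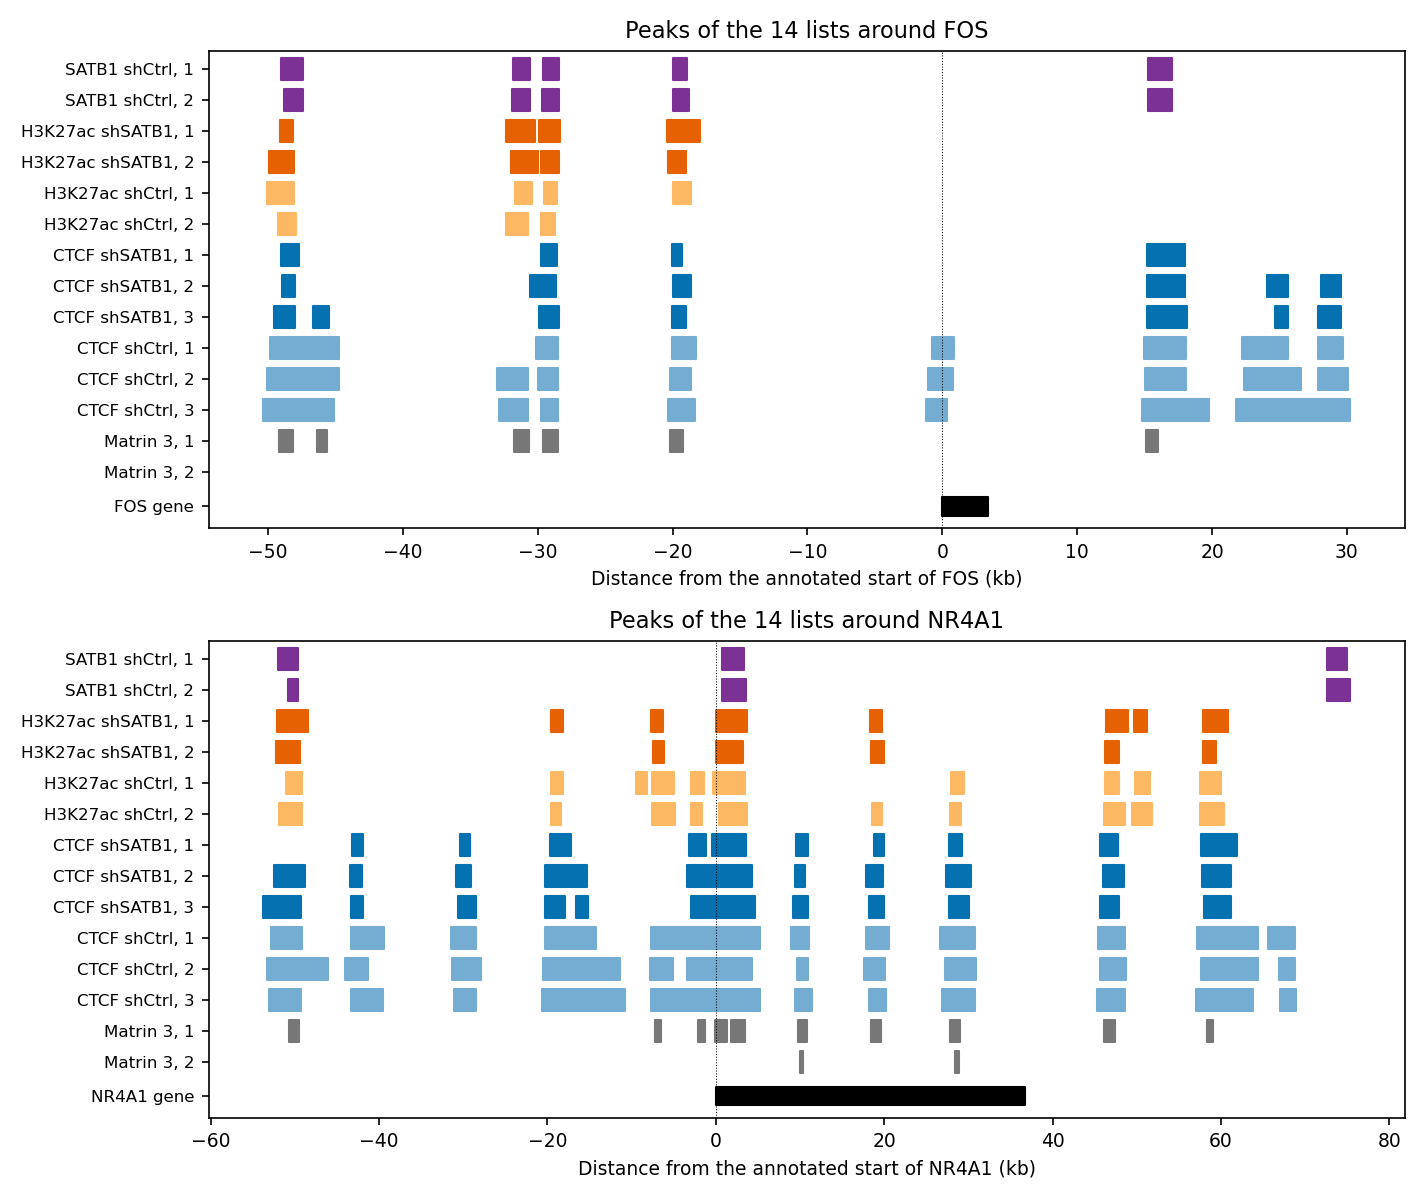
Peaks of the 14 lists (rows) by distance from the annotated start of FOS (top) and NR4A1 (bottom) in kb, with shSATB1 above shCtrl and the gene as a black bar. The start of FOS is covered in the 3 shCtrl CTCF rows only, and the 5 SATB1 regions lie between 48.2 kb upstream and 16.1 kb downstream.

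H3K27ac cover around the 10 genes differed less between the groups, and not in 1 direction. Within 50 kb, 4 of the 10 genes (JUNB, EGR2, EGR3 and NR4A1) had less in both shSATB1 libraries than in either shCtrl library, against 46.8% of the 14204 genes with H3K27ac in shCtrl. The count was 8 without the first shSATB1 library and 7 without the second shCtrl library. With 1 library left in a group, groups separate more easily, so the 46.8% of genes does not apply to these counts. The shSATB1 lists held 17925 and 15972 peaks with lowest total signals of 4405 and 4476, and the shCtrl lists 17863 and 17141 peaks with lowest total signals of 6836 and 6653. Covered length in the lists differed by -17.2%. The median was -11.3% for the 10 genes and -16.7% for all genes.

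FOS was the only one of the 10 with more H3K27ac cover in both shSATB1 libraries, a pattern of 5.71% of genes. It had 7.10 and 6.44 kb in shSATB1 and 5.48 and 4.06 kb in shCtrl, so the groups did not overlap. The mean was 6.77 ± 0.467 kb in shSATB1 and 4.77 ± 0.998 kb in shCtrl (SD, n = 2 each), a difference of 42.0%, at the 96th percentile of such differences among genes. In kb the difference was 2.00, 1.30 without the second shCtrl library and 4.15 without the lowest 25% of each list. All of this cover lay upstream, over the SATB1 regions. The peak 29.0 kb upstream was 1590 and 1323 bp wide in shSATB1 and 944 and 1014 bp wide in shCtrl. The peak 31.2 kb upstream was 2149 and 1973 bp wide in shSATB1 and 1279 and 1702 bp wide in shCtrl. The peak 19.4 kb upstream was 2410 and 1328 bp wide in shSATB1, and in shCtrl it was 1320 bp wide in the first library and not called in the second. The peak 48.2 kb upstream did not follow, at 953 and 1818 bp in shSATB1 and 1964 and 1347 bp in shCtrl. Within the shCtrl lists these peaks stood below the middle. The one 31.2 kb upstream was at the 18.7th and 15.3rd percentile and the one 29.0 kb upstream at 30.1 and 39.1. The one 19.4 kb upstream was at 15.7 in the first library, and the one 48.2 kb upstream at 42.4 and 39.1.

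NR4A1 had the most negative difference of the 10. It had 16.5 and 10.1 kb in shSATB1 and 18.7 and 19.5 kb in shCtrl, a difference of -30.4%. That is the 26.6th percentile of such differences among genes, inside their interquartile range of -31.5% to -3.04%. The difference in means was -5.82 kb, -2.58 kb without the second shSATB1 library and -9.05 kb without the first. NR4A1 also had fewer H3K27ac peaks, 8 and 6 in shSATB1 and 10 in each shCtrl library, a pattern of 9.61% of genes and of no other of the 10. None of the 10 had more H3K27ac peaks in both shSATB1 libraries, against 4.81% of genes.

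Of 46 H3K27ac regions near the 10 genes 31 (67.4%) were called in all 4 libraries, against 59.7% of all 20526. Neither shSATB1 library but both shCtrl libraries had 2 of the regions, against 5.95%, and both lay near NR4A1. One lay 2.2 kb upstream of its start (chr12:52019860-52021388), at the 24.5th and 15.3rd percentile of the shCtrl lists. The other lay inside the gene, 28.6 kb past the start (chr12:52050663-52052289), at 35.4 and 21.6. CTCF peaks were called over both in every shSATB1 and every shCtrl library. Both shSATB1 libraries but neither shCtrl library had 1 region, against 2.62%. It lay 11.5 kb upstream of DUSP2 (chr2:96156283-96157548), at only the 4.95th and 12.5th percentile, and with lists of equal length it no longer counted.

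The other genes showed small differences or groups that overlapped. JUNB averaged 11.9 ± 0.0651 kb in shSATB1 and 13.5 ± 1.83 kb in shCtrl (SD, n = 2 each), a difference of -11.7%. EGR3 averaged 4.45 ± 0.697 kb in shSATB1 and 5.59 ± 0.818 kb in shCtrl (SD, n = 2 each), a difference of -20.3%. EGR2 averaged 2.41 ± 0.263 kb in shSATB1 and 2.99 ± 0.272 kb in shCtrl (SD, n = 2 each), a difference of -19.3%. All 3 moved by 1.5 times or more when 1 library was left out. The JUNB difference of -1.58 kb was -0.282 kb without the second shCtrl library and -2.87 kb without the first. The EGR3 difference of -1.14 kb was -0.558 kb without the second shCtrl library, -0.644 kb without the first shSATB1 library and -1.72 kb without the first shCtrl library. The EGR2 difference of -0.575 kb ran from -0.383 to -0.767 kb, and was 0.627 kb without the lowest 25% of each list. JUN had 8.45 and 6.27 kb in shSATB1 and 5.44 and 8.78 kb in shCtrl, a difference of 3.47%. The difference was -6.09% at JUND, -5.59% at DUSP2, -10.9% at EGR1 and -21.3% at FOSB, and in these 5 genes the libraries of the groups overlapped. No difference could pass a test in this design. The two-sided exact permutation p was 0.333 at best, the smallest that 2 against 2 allows, and the smallest adjusted p over all genes was 0.880. No gene had an unadjusted p under 0.05 for H3K27ac or for CTCF.

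**Figure D4:**
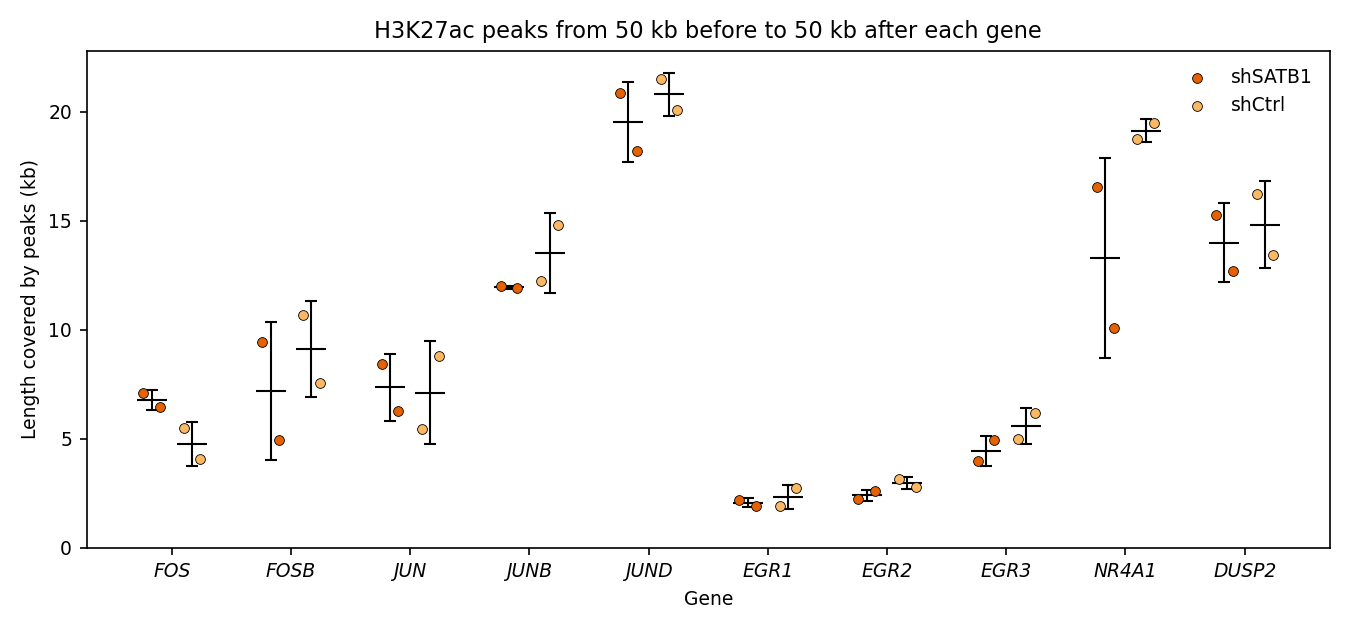
Kilobases covered by H3K27ac peaks from 50 kb before to 50 kb after each gene, with 1 point per library, shSATB1 on the left and shCtrl on the right of each pair, and bars for mean and SD (n = 2 each). FOS lies higher in both shSATB1 libraries, and JUNB, EGR2, EGR3 and NR4A1 lie lower.

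**Figure D5:**
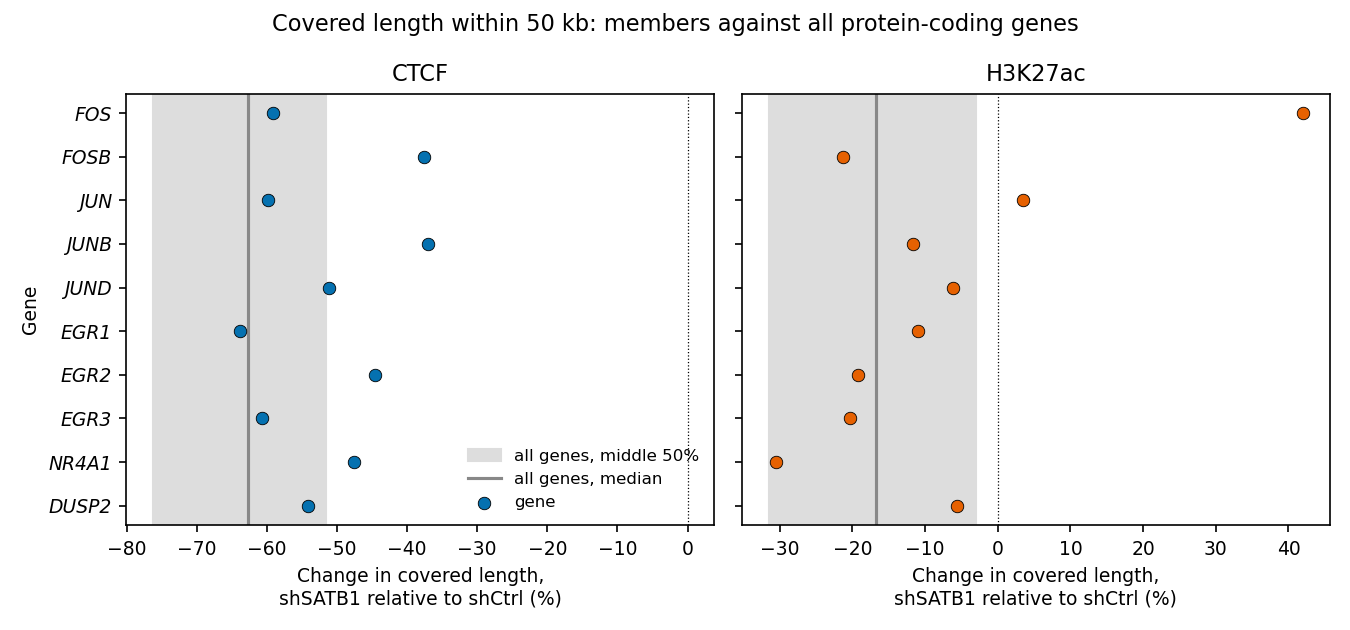
Difference in covered length between shSATB1 and shCtrl, as a percent of the shCtrl mean, for CTCF (left) and H3K27ac (right); points are the 10 genes, the grey line is the median of all genes (-62.7% and -16.7%) and the grey band their interquartile range. For CTCF all 10 lie below 0, and for H3K27ac FOS lies at 42.0% and NR4A1 at -30.4%, the latter inside the band.

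SATB1 was also read at the ends of 3 lists of related genes. Of 10 other AP-1 subunits, FOSL2 at a mean percentile of 34.7 and BATF at 1.504 had SATB1 at an end in both lists. Of 15 other immediate-early genes 6 did, among them IER5 at 74.7, NR4A3 at 43.4 and ZFP36L1 at 25.1. ZFP36, which destabilises cytokine messenger RNAs, averaged 57.1 but stood at 18.8 in the first list and 95.3 in the second. Of 15 upstream and cofactor genes 8 did, led by ELK1, a ternary complex factor, at 92.4, then MAP2K2 at 80.3, MAP2K1 at 60.1 and the EGR corepressor NAB2 at 49.0. These shares stand beside 24.5% of all genes.

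H3K27ac in both shCtrl libraries marked 3 of the 10 AP-1 subunits, 8 of the 15 immediate-early genes and 11 of the 15 upstream genes, against 38.8% of all genes. CTCF in every shCtrl library marked 8, 11 and 13 of them, against 58%, and the longer Matrin 3 list 4, 10 and 13, against 49.3%. CTCF at an end was called in no shSATB1 and every shCtrl library for 2 of the 8 AP-1 subunits with CTCF in every shCtrl library (JDP2 and MAFK), for 1 of the 11 immediate-early genes (DUSP4) and for 0 of the 13 upstream genes, against 14.8% of all such genes. No gene of the 3 lists had H3K27ac at an end in both libraries of 1 group and none of the other.

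Across the 14 libraries, the genes whose gene-end percentiles were closest to those of FOS were DHX40, USP46 and CST2, at Euclidean distances of 1.46, 3.41 and 3.65 percentile points among 19973 genes. For JUN they were EFCAB5 and SSH2, both at 13.0, and HAPSTR1 at 15.9. For EGR1 they were ASIC1, YY1 and MKNK2, at 22.6, 24.5 and 30.4.

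H3K27ac was at an end of 8 of 8 T cell markers in each of the 4 libraries. It was at 1 of 5 B cell markers (CD79A), 1 of 4 erythroid markers (EPOR) and none of 5 myeloid, 3 NK cell or 4 epithelial and stromal markers in both shCtrl libraries.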

How the data were processed

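CUT&Tag peak lists of 14 Jurkat libraries were used. The submitters' processing notes list SEACR, SAMtools, Bowtie2, deepTools and Trim Galore on GRCh38 (hg38), and MACS2 for all targets but Matrin 3. Software versions, settings and controls are not stated in the sources used here. The deposited columns hold each peak's position, total signal and maximum signal as the authors' caller wrote them. Peaks were called per sample. Signal is unscaled and read totals were not used, so depth is unknown and no counting interval is given.

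Of 273747 deposited peaks the 405 (0.148%) off chromosomes 1 to 22 and X were left out. Covered length and peak number within 50 kb of each of 19974 genes, gene-end calls within 2 kb and regions merged at 1 bp of overlap were computed with Python 3.11.15, numpy 2.4.6, pandas 2.3.3 and scipy 1.17.1, and drawn with matplotlib 3.10.9. Percentiles use average ranks within a list. Lengths were compared between shSATB1 and shCtrl libraries by two-sided exact permutation tests, Benjamini-Hochberg adjusted over all 19974 genes, also those without cover in shCtrl. The scripts were tested on simulated data. Shares of all genes or regions are given beside counts as background, not as a test. The genes and lists were chosen with earlier results of these data known. All 10 genes are named. Of each wider list at most 4 with the highest mean SATB1 percentile are named, with any that differed in gene-end calls, and for FOS, JUN and EGR1 the 3 genes closest over all libraries. Alternatives were gene-end and flank distances, the 5′ end alone, the peak maximum, total signal, stricter or equal-length lists, peak number, wider merging, the replicate block and leaving out each library. RefSeq gave a strand and promoter for 9 of the 10 genes.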

Additional observations from a re-analysis of the deposited data

How the results depend on the processing

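Of the recomputed values 16 turned direction and 33 others shifted. Counts shifted if they moved by over 1.5 times or to or from 0, and SATB1 percentiles if outside a binomial 95% interval of the main value. The other 307 did neither, many at another size. They include counts and differences of 0, which have no direction. CTCF length differences were 1.5 times smaller or more with lists of equal length at FOS, FOSB, JUN, JUND, EGR1, EGR2 and EGR3, with values beside the main ones. Without the lowest 25% of each list they were -1.72 kb at JUN and -0.775 kb at EGR2, and more negative than with whole lists at FOSB, JUNB and JUND. The JUN libraries then overlapped (p = 0.2, exact permutation test), and 9 of the 10 genes had less in each shSATB1 library. CTCF at a gene end in no shSATB1 and every shCtrl library was found for 0 of the 10 genes without the lowest 25% of each list and for 0 with lists of equal length, where FOS had been the 1. The CTCF regions with that pattern numbered 3 without the lowest 25%, 0 with equal lengths, 4 within 25 kb and 14 within 100 kb, against 7. H3K27ac regions called in both shSATB1 and no shCtrl library numbered 3 without the lowest 25% and 0 with equal lengths, against 1. Counted as peaks instead of kb, the shSATB1 minus shCtrl difference in CTCF was 0.667 peaks at FOSB and 4.33 at JUNB, and that in H3K27ac was -0.5 at JUN and 0.5 at both JUNB and DUSP2. H3K27ac length differed by 0.07 kb at FOSB within 25 kb, by -1.03 kb at JUN within 25 kb and -2.90 kb within 100 kb, and by 0.627 kb at EGR2 without the lowest 25%. The SATB1 regions within 25 kb numbered 13, against 20. By total signal the mean SATB1 percentile was 90.7 at JUN, 51.3 at JUND, 55.2 at EGR1, 55.0 at EGR2, 76.5 at NR4A1 and 85.4 at DUSP2. The cause of these shifts was not tested. Under the alternative settings, shares of all genes or regions were computed only for covered length with lists of equal length.

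With each library left out in turn, the H3K27ac difference ran from -4.18 to 0.299 kb at FOSB, from -1.42 to 1.92 kb at JUN, from -2.58 to 0.045 kb at JUND, from -0.650 to 0.142 kb at EGR1 and from -2.24 to 0.584 kb at DUSP2. The count of genes with less H3K27ac ran from 4 to 8, that of genes with an H3K27ac end in shCtrl only from 0 to 1, and the H3K27ac regions called in shCtrl only from 2 to 5 and in shSATB1 only from 1 to 2. The SATB1 percentile ran from 98.4 to 98.9 at JUN, from 73.8 to 79.97 at JUND, from 12.6 to 25.4 at EGR1, from 13.0 to 18.5 at NR4A1 and from 74.02 to 76.1 at DUSP2.

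With the replicate number as a block, the CTCF difference at FOS was -13.1 kb with an exact sign-flip p of 0.25, the smallest that 3 pairs allow. The block could change no call, since neither test can reach 0.05 with these libraries. Same-numbered CTCF libraries deviated together with correlations of 0.300, 0.0239 and 0.298, and the second shSATB1 library correlated best with the third shCtrl library (0.0589), so the numbers were not taken to pair the samples. For H3K27ac the correlation was 0.130 and the smallest block p 0.5. Depth limits are unknown, and 3 or 2 libraries a group cannot reach 0.05.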
